A study of Mus musculus with 31 samples.

Results

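Levels of 8 genes of the major histocompatibility complex (MHC) pathway, H2-K1, H2-D1, H2-T23, B2m, H2-Aa, H2-Ab1, H2-Eb1 and Cd74, were compared between 2 inbred mouse strains in 2 brain regions. The members were all array probes annotated to these genes, which gave 10 probes of the 55681 on the array. All 10 were among the 43415 probes tested. The strains were C57BL/6J and DBA2/J, sampled in prefrontal cortex of the medial wall (mPFC) and in nucleus accumbens (NAc). All mice were females of 12 weeks without a transgene, weaned on day 28. Litters of the repeated cross-fostering (RCF) groups were given a new adoptive mother on each of days 1 to 4 after birth. Control litters were lifted from the nest each day and kept their own mothers. Up to 2 mice could come from 1 litter. RNA of the dissected regions had an integrity number of at least 8.0, and 200 ng was labelled for 1-colour Agilent arrays.

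The MHC of C57BL/6J mice is of the b haplotype and that of DBA2/J mice is of the d haplotype, so the strains carry different alleles of nearly every classical MHC gene. Class I molecules pair a heavy chain with B2m and show peptides from inside the cell to CD8+ T cells. Class II molecules show peptides from taken-up proteins to CD4+ T cells. In the brain, class I transcripts are found in neurons, glia and vessels, and class II transcripts mainly in microglia and in macrophages and dendritic cells at vessels and meninges.

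The class I genes share short regulatory elements just ahead of their start, and 4 reference promoters are printed here because the strain differences that passed the test below concern these genes. Sequences are those of C57BL/6J from RefSeq on GRCm38.p6, and the DBA2/J sequence was not used here. Each covers the stretch ahead of the start of the gene and its first bases. Capitals mark matches on either strand to 3 motifs, GATTGG, the kappa B-like GGGGATTCC and an interferon-response-like pair of TTTC with 2 bases between them. The H2-K1 promoter lies at chr17:34000298-34000597 on the minus strand and that of H2-D1 at chr17:35262844-35263143 on the plus strand. The H2-T23 promoter lies at chr17:36032652-36032951 and that of H2-Aa at chr17:34287774-34288073, both on the minus strand.
H2-K1: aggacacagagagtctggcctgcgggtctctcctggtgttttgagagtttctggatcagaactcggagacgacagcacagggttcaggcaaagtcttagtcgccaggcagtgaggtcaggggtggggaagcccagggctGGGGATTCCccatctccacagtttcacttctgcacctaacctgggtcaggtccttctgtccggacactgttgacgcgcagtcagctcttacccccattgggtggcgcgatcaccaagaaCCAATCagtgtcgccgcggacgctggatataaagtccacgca
H2-D1: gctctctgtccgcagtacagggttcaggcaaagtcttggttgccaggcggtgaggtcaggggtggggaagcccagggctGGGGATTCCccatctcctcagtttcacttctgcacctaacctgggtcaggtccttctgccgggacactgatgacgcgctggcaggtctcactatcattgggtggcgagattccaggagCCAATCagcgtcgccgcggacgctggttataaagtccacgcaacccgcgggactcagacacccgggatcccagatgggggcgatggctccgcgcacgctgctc
H2-T23: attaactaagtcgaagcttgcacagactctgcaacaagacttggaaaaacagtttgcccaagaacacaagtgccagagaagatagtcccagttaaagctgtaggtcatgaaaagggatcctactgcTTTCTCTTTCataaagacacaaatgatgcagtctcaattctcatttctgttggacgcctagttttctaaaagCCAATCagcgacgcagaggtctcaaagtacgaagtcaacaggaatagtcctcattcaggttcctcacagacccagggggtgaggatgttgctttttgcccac
H2-Aa: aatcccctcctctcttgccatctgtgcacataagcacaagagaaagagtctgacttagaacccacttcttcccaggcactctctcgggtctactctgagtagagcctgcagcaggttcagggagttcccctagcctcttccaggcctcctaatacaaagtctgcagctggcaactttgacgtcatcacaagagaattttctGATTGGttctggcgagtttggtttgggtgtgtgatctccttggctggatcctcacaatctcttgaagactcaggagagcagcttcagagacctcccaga
Promoters of 6 members were matched, the other 2 being those of B2m and H2-Eb1. GATTGG occurred in all 6 of them and in 16.1% of all 32851 promoters. GGGGATTCC occurred in H2-K1 and H2-D1 and in 0.25% of all promoters. The spaced TTTC pair occurred in H2-T23 and B2m and in 3.44% of all promoters. The H2-K1 and H2-D1 promoters were alike, with 211 of 239 aligned bases identical (88.3%). A motif match is a description of the letters and not a measured binding site.

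The 31 arrays stood for 27 samples. In C57BL/6J there were 3 control and 4 RCF samples of the mPFC and 2 control and 4 RCF samples of the NAc. In DBA2/J there were 3 control and 3 RCF samples of the mPFC and 4 of each for the NAc. In each of 4 pairs of arrays of one group the values differed by little more than repeated spots on one array, and each pair was averaged and counted as 1 sample. Of the 31 scanner files, 29 are listed with another sample than the one whose deposited values they match, and each file was given the sample it matched. The share of probes well above background was 58.6 to 81.9% per array. By this matching each slide held the arrays of 1 strain and 1 region, so slide and strain, or slide and region, cannot be told apart. Control and RCF samples then shared a slide. With the files as listed, each slide would hold 1 strain and 1 treatment, with both regions. The labels number the samples within a group but do not name the animals, so p-values measure the spread between these samples.

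Of the 27 samples, 6 went against their labels by marker genes, 2 of them by strain and 4 by brain region. DBA mPFC control 1 and DBA NAc control 4 had low Glo1, a gene near the MHC whose level differs between inbred strains. Glo1 was at 3.09 and 3.13 on the log2 scale in these libraries. Its mean was 4.13 in the other DBA2/J mPFC samples and 4.51 in the other DBA2/J NAc samples. The strain marker Gpnmb was instead high in them, at -3.25 and -4.46, against -7.46 or below on every other DBA2/J array. Gabra2, the remaining strain marker, was at 1.13 in DBA mPFC control 1, against 2.29 or above on the other DBA2/J mPFC arrays. In DBA NAc control 4 it was at 2.46, between the highest C57BL/6J NAc array (2.18) and the lowest other DBA2/J NAc array (2.82). Xist, the RNA of the inactive X chromosome in females, was at -5.87 in DBA mPFC control 1 and at -0.28 or above on every other array. All samples are used under their labels. Some member differences are also given without these libraries, and differences of list genes are given only with them. The samples doubted by region were C57 mPFC control 3, C57 mPFC RCF 1, C57 NAc control 1 and 3 (an averaged pair), and C57 NAc RCF 1.

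Levels below are log2 signals minus the 75th percentile of the array, so 0 is that percentile. Levels of different probes are not compared. The H2-Aa probe exceeded background on 16 of 31 arrays by the scanner's own mark, and the other 9 probes did so on every array. H2-K1 and H2-Ab1 had 2 probes each and the other genes 1. Probe sequences were not used here, and whether a class I probe also binds near-identical class I genes, or the alleles of both strains equally, was not tested.

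Among the class I heavy chains, H2-D1 and H2-T23 were higher in DBA2/J in both regions, and H2-K1 was lower in DBA2/J in the mPFC by 1 of its 2 probes. In the mPFC, 3 of the 10 member probes differed between strains at an adjusted p under 0.05, where 49.1% of all tested probes did. In the NAc, 3 of 10 differed, where 30.7% of all tested probes did, the third probe there being that of H2-Aa, which was lower in DBA2/J. The share of members called was thus below that of all probes in the mPFC and near it in the NAc. All tests are limma's moderated tests in 1 fit over the 8 groups, strains being compared over the mean of control and RCF, with Benjamini-Hochberg adjustment over all tested probes.

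**Figure D1:**
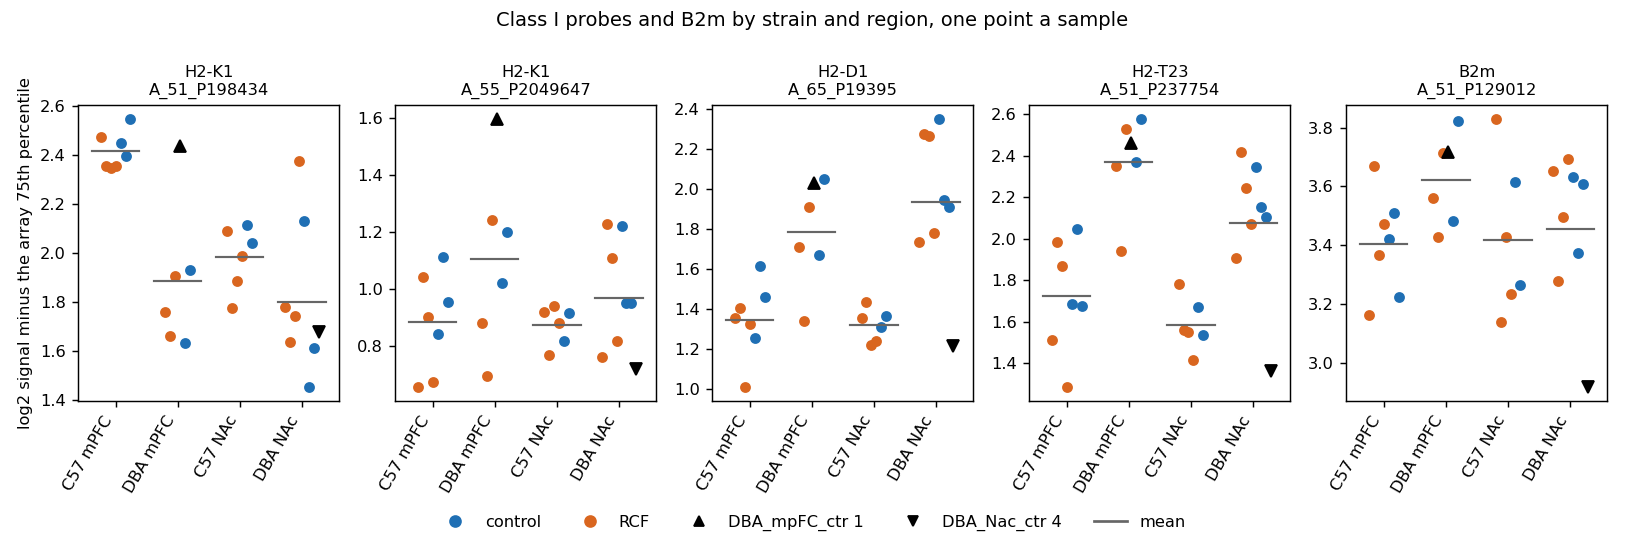
Log2 level over the array's 75th percentile (vertical axis) of the class I probes and B2m in each of the 27 samples, by strain and region. Blue points are controls, orange points RCF, grey lines group means, and black triangles DBA mPFC control 1 (upward) and DBA NAc control 4 (downward). The H2-T23 samples of DBA2/J mPFC start at 1.94, where those of C57BL/6J mPFC end at 2.05.

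H2-T23 encodes the heavy chain of Qa-1, a non-classical class I molecule read by receptors of natural killer cells. In the mPFC it ran from 1.28 through a median of 1.68 to 2.05 in the 7 C57BL/6J samples. In the 6 DBA2/J samples it ran from 1.94 through 2.41 to 2.58. The ranges overlapped only between 1.94 and 2.05. The difference, DBA2/J minus C57BL/6J, was 0.64 ± 0.15 (SE, adjusted p = 0.00103 by limma), a 1.56-fold higher level. In the NAc, H2-T23 ran from 1.41 through 1.55 to 1.78 in the 6 C57BL/6J samples and from 1.36 through 2.13 to 2.42 in the 8 DBA2/J samples. A single DBA2/J sample, DBA NAc control 4 at 1.36, lay below 1.91. The NAc difference was 0.49 ± 0.15 (SE, adjusted p = 0.0147 by limma). It was 0.59 ± 0.13 (adjusted p = 0.0013) without DBA mPFC control 1 and DBA NAc control 4. It was 0.45 with adjusted p = 0.0534 without C57 NAc control 2 and 4, an averaged pair.

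H2-D1 encodes the classical class I heavy chain at the D end of the complex. In the mPFC it ran from 1.01 through 1.36 to 1.62 in C57BL/6J and from 1.34 through 1.81 to 2.05 in DBA2/J, with overlap from 1.34 to 1.62. The difference was 0.43 ± 0.15 (SE, adjusted p = 0.0187 by limma). This call rested on single libraries, since the difference was 0.38 with adjusted p = 0.0503 without C57 mPFC control 1 and 0.36 with adjusted p = 0.06 without DBA mPFC RCF 4. In the NAc, H2-D1 ran from 1.22 through 1.33 to 1.43 in C57BL/6J and from 1.21 through 1.93 to 2.35 in DBA2/J. The lowest DBA2/J value was again that of DBA NAc control 4, and the next was 1.73. The difference was 0.61 ± 0.15 (SE, adjusted p = 0.00303), 1.53-fold, and 0.72 ± 0.13 (adjusted p = 0.000164) without the 2 libraries doubted by strain. Within the NAc by treatment, H2-D1 was higher in DBA2/J by 0.70 among RCF samples (adjusted p = 0.0118) and by 0.52 among controls (adjusted p = 0.117), and the difference between these was not tested.

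H2-K1 encodes the classical heavy chain at the K end. Its probe A_51_P198434, printed in 10 spots with a median SD between spots of 0.0571, ran from 2.35 through 2.40 to 2.55 in C57BL/6J mPFC. It ran from 1.63 through 1.83 to 2.44 in DBA2/J mPFC. The DBA2/J maximum was DBA mPFC control 1, and the other 5 samples lay between 1.63 and 1.93, apart from all C57BL/6J samples. The difference was -0.54 ± 0.13 (SE, adjusted p = 0.00151 by limma), a 1.45-fold lower level in DBA2/J, and -0.64 ± 0.12 (adjusted p = 0.000242) without the 2 doubted libraries. In the NAc it ran from 1.78 through 2.01 to 2.11 in C57BL/6J and from 1.45 through 1.71 to 2.38 in DBA2/J. That difference was -0.20 ± 0.13 (SE, adjusted p = 0.233).

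The other H2-K1 probe, A_55_P2049647, did not follow the first. Medians in the mPFC were 0.90 in C57BL/6J and 1.11 in DBA2/J, with a difference of 0.21 ± 0.11 (SE, adjusted p = 0.129 by limma). In the NAc they were 0.90 and 0.95, with ranges of 0.77 to 0.94 and 0.72 to 1.23. Over the 27 samples the 2 H2-K1 probes had a correlation of 0.05, and 0.32 after group means were removed. The deviations of A_55_P2049647 from group means went with those of H2-T23 (r = 0.75) and H2-D1 (r = 0.72) instead. These correlations share libraries and scaling and are given as descriptions. The strain difference of H2-K1 is therefore that of 1 probe of 2.

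B2m, the light chain of every class I molecule, showed no such difference. It ran from 3.16 through 3.42 to 3.67 in C57BL/6J mPFC and from 3.43 through 3.64 to 3.82 in DBA2/J mPFC, a difference of 0.22 ± 0.13 (SE, adjusted p = 0.163 by limma). In the NAc the difference was 0.03 (adjusted p = 0.87), with values from 3.14 to 3.83 in C57BL/6J and from 2.92 to 3.69 in DBA2/J. The lowest value of all 27 samples, 2.92, was that of DBA NAc control 4. With quantile scaling the mPFC difference of B2m was 0.33 and passed the test (adjusted p = 0.0398).

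**Figure D2:**
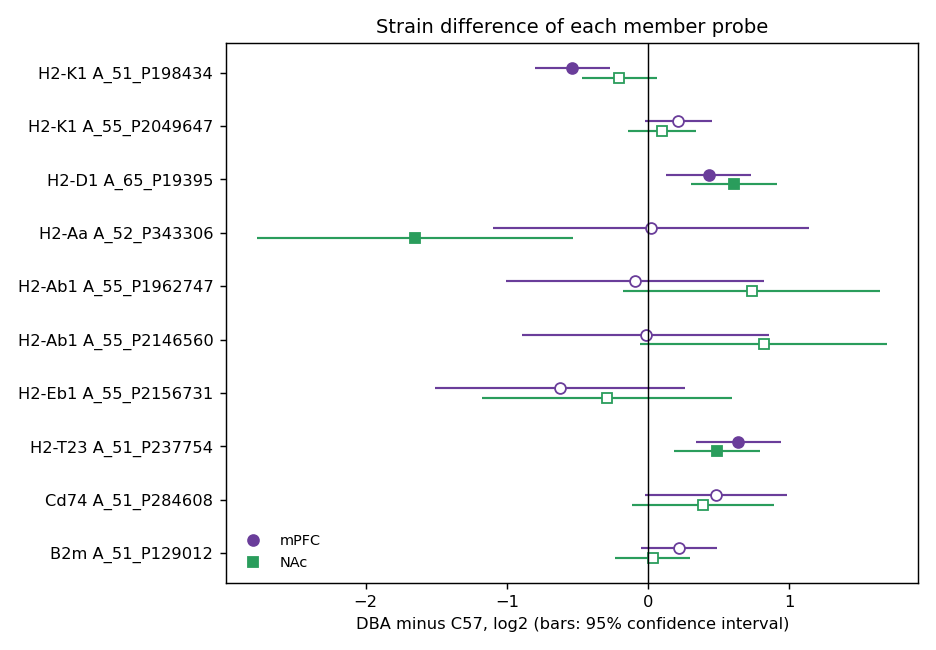
Difference in log2 level, DBA2/J minus C57BL/6J (horizontal axis), of the 10 member probes in the mPFC and NAc, with 95% confidence intervals from the fit. Filled points passed an adjusted p under 0.05: H2-K1 A_51_P198434 at -0.54, H2-D1 at 0.43 and H2-T23 at 0.64 in the mPFC, and H2-D1 at 0.61, H2-T23 at 0.49 and H2-Aa at -1.65 in the NAc.

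Whether the strain difference itself differed between regions was tested as an interaction. None of the 10 members passed the limma test, where 30.6% of all tested probes did, and 1 of 10 had an unadjusted p under 0.05. That probe was H2-Aa, whose strain difference was lower in the NAc than in the mPFC by -1.67 ± 0.76 (SE, adjusted p = 0.0998). H2-K1 A_51_P198434 had an interaction of 0.33 ± 0.18 (SE, adjusted p = 0.169), and 0.44 (adjusted p = 0.0495) without DBA mPFC control 1. The H2-Aa interaction was -2.03 with adjusted p = 0.0248 without C57 NAc RCF 2. For H2-D1 and H2-T23 the 95% intervals in both regions overlapped.

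Class II genes ranged more widely within a strain and region than class I genes did, and among them only H2-Aa in the NAc passed the test between strains. H2-Ab1 encodes the beta chain of the class II molecule I-A, and its probes A_55_P1962747 and A_55_P2146560 moved together (r = 0.99 over 27 samples). By the first probe H2-Ab1 ran from -1.23 through -0.90 to 0.35 in C57BL/6J mPFC and from -1.40 through -0.73 to 0.11 in DBA2/J mPFC. In the NAc it ran from -3.13 through -1.13 to 0.46 in C57BL/6J and from -2.59 through -0.76 to -0.15 in DBA2/J. C57BL/6J NAc thus had both the lowest and the highest samples. The NAc differences were 0.73 ± 0.44 (SE, adjusted p = 0.214 by limma) and 0.82 ± 0.42 (adjusted p = 0.145). Without the 2 libraries doubted by strain they were 0.98 ± 0.42 (adjusted p = 0.0783) and 1.06 ± 0.40 (adjusted p = 0.0459). Without every doubted sample the second was 1.53 (adjusted p = 0.0245). In whole tissue, fewer cells of a type and less RNA per cell cannot be told apart.

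H2-Eb1, the beta chain of the other class II molecule I-E, ran from -0.90 through -0.76 to 0.25 in C57BL/6J mPFC and from -1.79 through -1.15 to -0.53 in DBA2/J mPFC. Its difference of -0.62 ± 0.43 (SE) had an adjusted p of 0.235 by limma. In the NAc it ran from -2.89 through -1.07 to -0.01 and from -2.97 through -1.60 to -0.62, with heavy overlap. Cd74, the invariant chain that occupies class II grooves until peptides are loaded, had medians of -1.56 in C57BL/6J and -1.16 in DBA2/J mPFC. Its differences were 0.48 ± 0.24 (SE, adjusted p = 0.108) in the mPFC and 0.39 ± 0.24 (adjusted p = 0.236) in the NAc. The mPFC differences of the 2 genes had opposite signs, and neither passed the test.

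**Figure D3:**
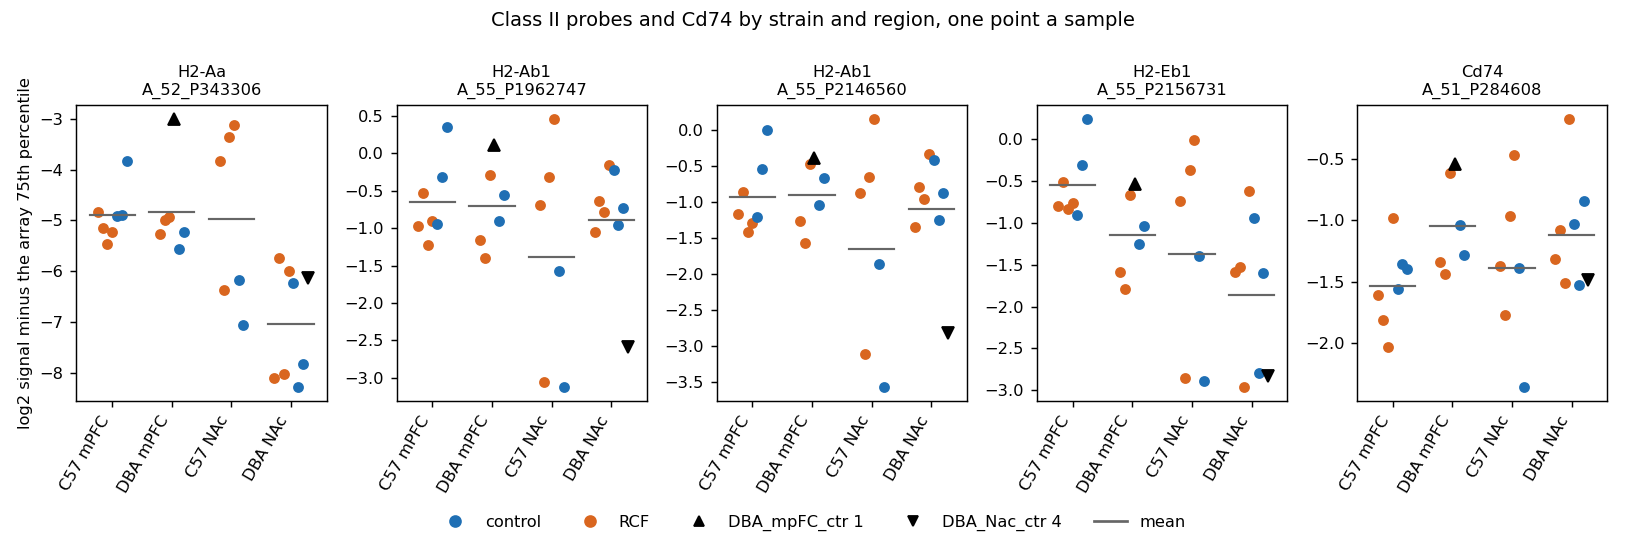
Log2 level over the array's 75th percentile (vertical axis) of the class II probes and Cd74 in each of the 27 samples, by strain and region. Blue points are controls, orange points RCF, grey lines group means, and black triangles the 2 libraries doubted by strain. H2-Ab1 by A_55_P1962747 spans -3.13 to 0.46 in the C57BL/6J NAc samples.

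H2-Aa, the alpha chain of I-A, was the member with values near background on many arrays. It ran from -5.45 through -4.90 to -3.83 in C57BL/6J mPFC, from -5.57 through -5.11 to -3.00 in DBA2/J mPFC, from -7.05 through -5.00 to -3.12 in C57BL/6J NAc and from -8.28 through -7.02 to -5.73 in DBA2/J NAc. The DBA2/J NAc samples were the lowest, and 1 of their 8 arrays was well above background, against 3 of 8 in C57BL/6J NAc, all RCF. The fitted strain difference in the NAc was -1.65 ± 0.54 (SE, adjusted p = 0.0239 by limma), with a size that rests on values mostly not well above background. This difference lost the call in 7 of 40 alternatives. Among them were leaving out DBA NAc control 2 (-1.45, adjusted p = 0.0524) and normexp background correction (-0.34, adjusted p = 0.341). The call was also lost among control samples alone (adjusted p = 0.708), where no array of either strain was well above background. It was -1.43 without C57 NAc control 1 and 3 and -1.53 without every doubted sample, fits that left a single C57 NAc control sample.

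Between regions, 1 member passed the test in each strain. In C57BL/6J, H2-K1 A_51_P198434 was lower in the NAc than in the mPFC by -0.42 ± 0.13 (SE, adjusted p = 0.0453 by limma), where 10.5% of all tested probes differed. The call lay near the threshold and was lost in 17 of the 27 fits that left out 1 sample, with adjusted p from 0.0202 to 0.152. Samples doubted by region stood on both sides, mPFC control 3 (2.55) and RCF 1 (2.47), NAc control 1 and 3 (2.11) and RCF 1 (2.09). Between these C57BL/6J groups none of 17 striatal marker genes passed the test, and 3 of 16 cortical ones were lower in the NAc. Region and slide cannot be told apart here. The other call was in DBA2/J, where H2-Aa was lower in the NAc by -2.20 ± 0.52 (SE, adjusted p = 0.00116) and 56.1% of tested probes differed. It was well above background on 7 of 8 DBA2/J mPFC arrays but on 1 of 8 NAc arrays, so the size of this difference is uncertain.

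The class II genes went together across samples and with a list of perivascular macrophage and dendritic cell genes. After group means were removed, H2-Ab1 A_55_P1962747 correlated with H2-Eb1 at 0.87, and H2-Eb1 with Cd74 at 0.78, over 27 samples. The mean of H2-Ab1, H2-Eb1 and Cd74 had a within-group correlation of 0.70 with the mean of the perivascular list (10 of 14 genes tested) and of 0.70 with that of a vascular and meningeal list (22 genes). With an interferon-response list (25 of 28 genes) it was 0.68, with a microglia list (20 genes) 0.26, with a lymphocyte list (9 of 14 genes) 0.20, and with a choroid plexus list (8 of 9 genes) -0.03. These points share libraries and scaling, and the correlations are descriptions. Of the defining markers, Mrc1 was well above background on 31 of 31 arrays, Lyve1 on 22, Cd209a on 21, Itgax on 17, Ccr2 on 6 and Cd163 on 3. The part of these cells in the class II levels was not tested.

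**Figure D4:**
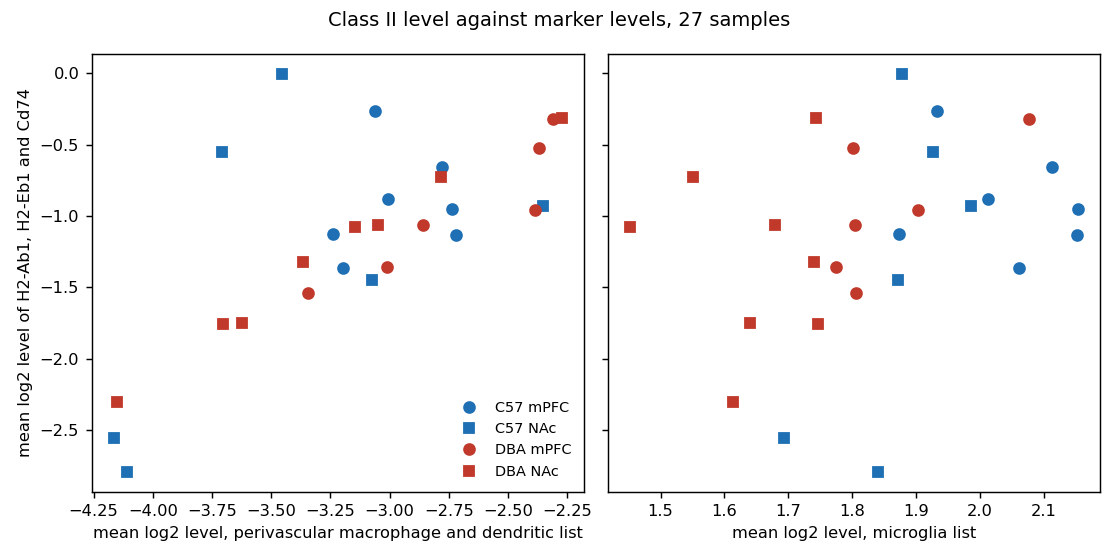
Mean log2 level of H2-Ab1, H2-Eb1 and Cd74 (vertical axis) against the mean log2 level of the perivascular macrophage and dendritic cell list and of the microglia list (horizontal axes) in 27 samples, coloured by strain and region. Over all samples r was 0.71 for the perivascular list and 0.32 for the microglia list.

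The other genes of antigen presentation moved both ways between strains. Of 53 listed genes 41 were tested, and the adjusted p of each gene named as higher or lower was at most 0.0422 by limma. In the mPFC, 12 were higher in DBA2/J, 6 lower and 23 did not pass the test, with a median difference of 0.07 against 0.13 over all tested probes, of which 31.9% were higher and 17.3% lower. In the NAc, 13 were higher, 4 lower and 24 did not pass, with a median of 0.25 against 0.01 over all probes, of which 13.3% were higher and 17.4% lower. Among the genes of peptide supply and class I assembly, 3 were higher and 2 lower of 13 in the mPFC, and 3 were higher and none lower in the NAc. Tap1, a subunit of the peptide transporter, was called higher in DBA2/J mPFC, but was well above background in 1 of the 7 C57BL/6J arrays, so the size of the difference is not given. Tap2, its partner, was lower by -0.35, and the chaperone Canx by -0.35.

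Among the class II pathway genes, 3 were higher and 2 lower of 13 in the mPFC, and 4 were higher and 4 lower in the NAc. Ifi30, the lysosomal thiol reductase that unfolds antigens, was higher in DBA2/J by 0.89 ± 0.29 (SE) in the mPFC and 1.00 ± 0.29 in the NAc. H2-DMa, the alpha chain of the peptide-loading molecule H2-DM, was higher by 1.17 ± 0.18 and 0.78 ± 0.18 (SE). H2-DMb1, its beta chain, was lower by -0.69 in the mPFC. In the NAc, H2-Ob (-1.29) and H2-Oa (-0.74), which form the inhibitor of H2-DM, were lower, as was Ciita, the class II transactivator, by -0.88 ± 0.28 (SE). H2-Eb2, a class II beta chain gene beside H2-Eb1, was lower by -0.95 and -1.35. Rfx5, a factor that binds class II promoters, was higher in the NAc by 0.88.

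Some non-classical class I genes were higher in DBA2/J and others did not pass the test. H2-Q2, H2-Q7, H2-Q8 and H2-Q10 were higher in both regions, by 0.64, 0.63, 0.65 and 0.84 in the mPFC and by 0.57, 0.74, 0.58 and 0.55 in the NAc. H2-M3 (0.87) and the lipid-presenting Cd1d1 (0.95) were higher in the NAc. H2-Q1, H2-T10 and H2-T24 passed the test in neither region. H2-M1 and H2-M5 were called higher in the mPFC, but were well above background in 1 of 7 C57BL/6J arrays each, so the size of the difference is not given. Lower in DBA2/J mPFC were H2-Q4 (-0.43) and Hfe (-0.70), a class I-like regulator of iron uptake. Genes of the MHC region that do not present antigen also went both ways, with 7 higher and 6 lower of 30 tested in the mPFC and 5 and 3 in the NAc. No probe was matched to H2-Ea, the I-E alpha chain that b haplotype mice do not express, or to H2-L.

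Counts for the other lists are read against the 49.1% of all probes called in the mPFC and the 30.7% in the NAc. The interferon-response list had 4 higher and 4 lower of 25 genes in DBA2/J mPFC and 1 and 3 in the NAc. Of 20 microglia genes, 3 were higher and 9 lower in the mPFC and 2 and 5 in the NAc. The perivascular list had 3 higher of 10 in the mPFC and none in the NAc. The lymphocyte list had 4 higher and 1 lower of 9 in the mPFC and none higher and 4 lower in the NAc. The vascular list had 2 higher and 6 lower of 22, then 3 and 1, and the choroid plexus list 1 and 1 of 8, then none and 1. The interferon, perivascular, vascular and choroid plexus lists had smaller shares called than all probes in both regions, and no list was tested against that share. Their part in the members' differences was not tested.

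Genes with the most similar pattern over the 27 samples were sought among 16645 genes by Pearson correlation. The closest to H2-D1 were the non-classical class I genes H2-Q7 (0.97), H2-Q2 (0.92) and H2-Q8 (0.89). Those closest to H2-T23 were H2-Q2 (0.94), H2-Q8 (0.93) and H2-Q10 (0.92). For H2-K1 by A_51_P198434 they were Lsr (0.91), Foxf2 (0.90) and Parp9 (0.89). For B2m they were St3gal6 (0.85), Adora2b (0.80) and Niban1 (0.77). H2-Eb1 was closest to Slc22a6 (0.84) and to the macrophage genes Mrc1 (0.83) and Pf4 (0.82). Cd74 was closest to Hpgds (0.81), Anxa1 (0.76) and Tnfaip2 (0.76), H2-Ab1 to Tmem37 (0.76), Foxd2 (0.74) and Plbd1 (0.74), and H2-Aa to Fbln7 (0.80), Vpreb3 (0.79) and Emx2os (0.78). H2-D1, H2-T23 and the H2-Q genes are near relatives, and cross-binding of their probes was not tested.

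The 2 libraries doubted by strain were placed by the members one at a time. With all samples, none of the 10 member probes had strain groups without overlap, where 26.1% of 43313 probes with a value in every sample did in the mPFC and 7.64% in the NAc. Without DBA mPFC control 1, 1 of 10 separated the strains in the mPFC, against 34.2% of all probes. That probe was H2-K1 A_51_P198434, and the sample, at 2.44, lay inside the C57BL/6J range of 2.35 to 2.55. Its H2-D1 value of 2.03 and H2-T23 value of 2.46 lay inside the range of the other DBA2/J samples. Its values of H2-K1 A_55_P2049647 (1.60), H2-Aa (-3.00) and Cd74 (-0.55) were above both strains. Its H2-Ab1 values of 0.11 and -0.39 and its H2-Eb1 value of -0.53 were above the other DBA2/J mPFC samples, which reached -0.29, -0.48 and -0.66, and inside the C57BL/6J range. The class I probes that differed between strains thus placed this library with C57BL/6J by 1 probe and with DBA2/J by 2.

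Without DBA NAc control 4, 2 of 10 member probes separated the strains in the NAc, against 12.7% of all probes. Its H2-D1 value of 1.21 and H2-T23 value of 1.36 were below the other 7 DBA2/J samples, which lay from 1.73 to 2.35 and from 1.91 to 2.42. Both were just below the C57BL/6J minimum of 1.22 and 1.41. Its values of H2-K1 A_55_P2049647 (0.72) and B2m (2.92), probes that did not separate the strains, were also below all other NAc samples of both strains. Its H2-Ab1 values of -2.59 and -2.82 were below the other DBA2/J samples and inside the C57BL/6J range. Its H2-Aa, H2-Eb1 and Cd74 values lay inside the ranges of both strains. H2-K1 A_51_P198434, at 1.68, lay inside the range of the other DBA2/J samples.

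Across all probes, both libraries were split between the strains. Of the probes that separated the strains without the sample, 28.1% were nearer C57BL/6J for DBA mPFC control 1 and 47.4% for DBA NAc control 4. Of 1977 probes that separated the strains by at least 0.5 in both regions, 63.8% were nearer C57BL/6J for the first and 71.4% for the second. Among these were 7 probes of the member and listed genes, namely Lta, Psmb9, H2-Q2, Glo1, Ifi30, Rfxank and H2-Eb2, and none of the 10 member probes. The 1977 were a small part of the 43415 tested probes, so neither count is read as a shortage or an excess. Glo1 is among the markers that put these libraries in doubt, so it is left out of the counts. DBA NAc control 4 was nearer C57BL/6J at 5 of the other 6, H2-Eb2 being the exception. DBA mPFC control 1 was nearer C57BL/6J at 3 of the 6, including Lta at -5.55, against means of -5.34 in C57BL/6J and -3.51 in other DBA2/J samples. It was nearer DBA2/J at H2-Q2 by probe A_51_P425048, at -0.52, against -2.04 in C57BL/6J and -0.52 in other DBA2/J samples. The H2-Q2 strain differences given above are those of another probe, A_51_P219789. The probes that separated the strains in both regions were chosen after their values were seen, and no test was made.

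**Figure D5:**
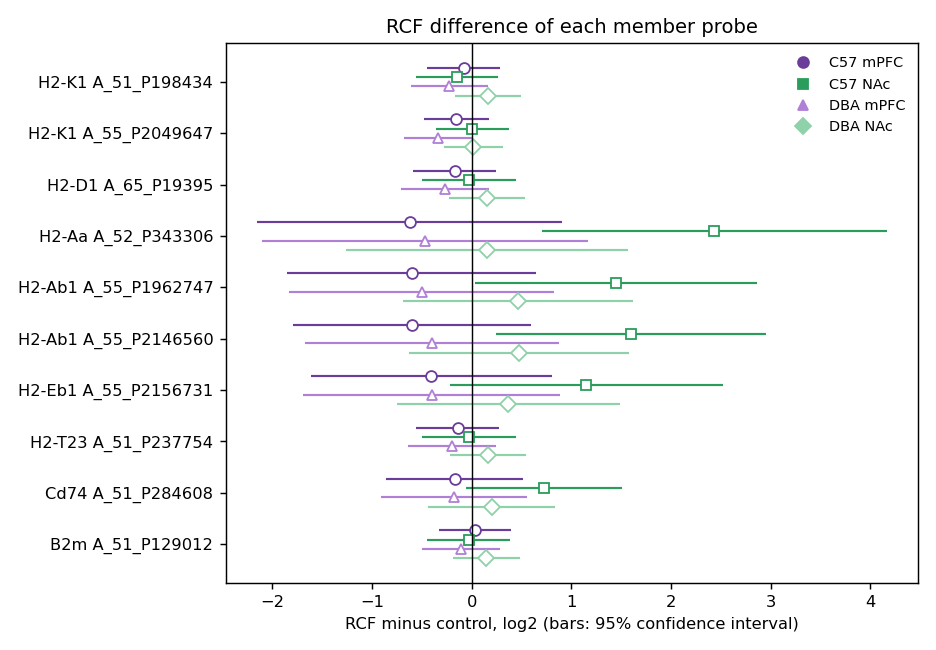
Difference in log2 level, RCF minus control (horizontal axis), of the 10 member probes in each strain and region, with 95% confidence intervals from the fit. No point is filled, since none passed an adjusted p under 0.05. The H2-Aa point in C57BL/6J NAc is not a measured size, since the controls were not well above background there.

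No member passed the test between RCF and control mice in either strain or region. Limma called 0 of 10 members in each of the 4 comparisons, and of all tested probes 0% in C57BL/6J mPFC, 0.479% in C57BL/6J NAc, 0% in DBA2/J mPFC and 0% in DBA2/J NAc. Unadjusted p was under 0.05 for 1164, 4826, 685 and 1005 probes in the same order. Among members it was so for 3 probes, all in C57BL/6J NAc. None of the 41 antigen presentation genes tested was called in any of the 4.

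In C57BL/6J NAc the class II genes were high in 3 of the 4 RCF samples. H2-Aa was at -6.16 and -7.05 in the controls and at -3.83, -6.36, -3.35 and -3.12 in RCF samples 1 to 4. H2-Ab1 A_55_P1962747 was at -1.57 and -3.13 in the controls and at -0.68, -3.05, -0.32 and 0.46 in the RCF samples. H2-Eb1 was at -1.40 and -2.89 in the controls and at -0.74, -2.85, -0.37 and -0.01 in the RCF samples. RCF 2 lay with the controls at each gene, and the groups overlapped.

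H2-Aa was not well above background on any of the 4 control arrays and was so on 3 of 4 RCF arrays, so the control level is only a bound. Against that bound the mean of the 4 RCF samples was 1.77-fold higher. That mean includes RCF 2, which was not well above background, so 1.77 is not a strict lower limit. The RCF difference of H2-Aa did not pass the test (adjusted p = 0.234 by limma). The adjusted p was 0.0353 only when near-duplicate arrays were counted as separate samples, which treats 2 control samples as 4. H2-Ab1 differed by 1.45 ± 0.68 (SE, adjusted p = 0.433) and 1.60 ± 0.65 (adjusted p = 0.343), H2-Eb1 by 1.15 ± 0.66 (adjusted p = 0.544) and Cd74 by 0.73 ± 0.38 (adjusted p = 0.494). The mean level of the perivascular list ran from -4.16 to -2.35 in the RCF samples and from -4.11 to -3.07 in the controls, and its part in these values was not tested. One of the 2 control samples and RCF 1 were doubted by region.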

How the data were processed

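The authors deposited 31 scanner files of 1-colour Agilent arrays, whose intensity values were background-subtracted and detrended by Feature Extraction 10.7.3.1, per the file headers and the submitters' processing notes. The authors also deposited a series matrix of log2 values with unstated scaling. Every scanner file was assigned to a sample through the best-correlated column of the matrix (lowest r 0.9999958, highest r with any other column 0.99803). The level of a probe was log2 of the processed signal minus the array's 75th percentile, spots marked as outliers being left out and spots of a probe averaged. Probes well above background on at least 3 arrays were tested (43415). Pairs of arrays of one group were averaged where the spread of their difference was under 3 times that of repeated spots, a limit set after the values were seen (4 pairs at 1.475 to 2.179, 41 others at 4.122 to 12.078).

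Groups were fitted together in limma 3.58.1 (R 4.3.3), and calls used an adjusted p under 0.05 with Benjamini-Hochberg adjustment over all tested probes; the fit was tested on simulated data. The fold of H2-Aa given against a bound set the RCF mean against the lowest signal well above background on the control arrays. Named list genes were the listed genes with the most extreme strain differences past the threshold, up to 6 in each direction and region. Further H2-Q genes, H2-T10 and H2-T24 were named besides, outside this rule. Named similar genes were the 3 with the highest correlation. The members, lists and tests were chosen with earlier results of these data known. The number of arrays limits the precision. Alternatives were other scalings (quantile; normexp with an offset of 50 on the median signals), the matrix values, no filter, other sample sets, array weights and a replicate block.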

Additional observations from a re-analysis of the deposited data

Results flagged for a closer look

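Of 40 checks of a member probe in a group of 4 samples, 1 found a sample far from the rest, and chance gives about 1 in 20. H2-K1 by probe A_51_P198434 was at 2.47 in C57 mPFC RCF 1, while the other 3 samples of the group lay between 2.35 and 2.36. The gap took up 0.921 of the group's range, above the critical value of 0.829. The difference between these samples is small beside the strain difference of the probe (-0.54). This sample is one of those doubted by brain region.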

How the results depend on the processing

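Member counts past the threshold changed by no more than 1.5 times in 305 of 348 alternatives. This includes the interaction and the 4 RCF comparisons, whose count was 0 and mostly stayed 0. Many alternatives also left out a sample of a group outside the comparison. The region count in C57BL/6J moved in 23 of 38 alternatives. With scanner files taken as listed, the counts were 1 for the strain difference in the mPFC, 1 in the NAc, 2 for RCF in C57BL/6J mPFC, 3 in C57BL/6J NAc, 2 in DBA2/J mPFC, 2 in DBA2/J NAc, and 0 and 0 for the region differences. Under that mapping control and RCF samples lay on different slides, so RCF and slide cannot be told apart in those counts. With it 4 values reversed: H2-Aa (-1.80) and H2-T23 (-0.0812) in the mPFC, and H2-D1 (-0.0221) and H2-T23 (-0.35) in the NAc. The region count in C57BL/6J was 0 with quantile scaling, normexp, the matrix values, no filter on dim probes, and without every doubted sample. In DBA2/J it was 0 with normexp, 2 without averaging near-duplicates and 3 with array weights. RCF in C57BL/6J NAc had 1 call, H2-Aa, without that averaging. Among control samples strain comparison counted 1 member in the mPFC but 0 in the NAc. Leaving out 1 sample gave 2 to 4 in each strain comparison, 0 to 1 for the interaction, 0 to 1 and 1 to 2 for the region differences in C57BL/6J and DBA2/J, and 0 for RCF.

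Counts over all probes moved with the setting, from 7353 to 21036 in the NAc strain comparison (13325 in the text) and from 0 to 17066 for RCF in C57BL/6J NAc (208). Normexp moved the median strain difference of all probes in the mPFC from 0.13 to -0.12. Of 30 pairs of samples with the same replicate number, 7 had deviations that correlated over 0.1 (range -0.60 to 0.38). Some pairs joined different strains and others held samples doubted by region, so this cannot settle whether the numbers pair samples. With the replicate number as a block over 31 arrays the counts were 1 for the interaction (H2-K1, 0.38), 1 for RCF in C57BL/6J NAc and 2 for region in DBA2/J. Slide and strain cannot be told apart, and the dim H2-Aa probe is limited by its signal over background. Causes of these changes were not tested.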

Other observations

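Strain differences of the members were also estimated within each treatment, in the same limma fit. In the mPFC, H2-T23 was higher in DBA2/J by 0.67 ± 0.21 (SE, adjusted p = 0.0252) among controls and by 0.61 ± 0.20 (adjusted p = 0.0207) among RCF samples. H2-K1 by A_51_P198434 was lower by -0.61 ± 0.17 (SE, adjusted p = 0.00974) among RCF samples and differed by -0.46 ± 0.19 (adjusted p = 0.0719) among controls. H2-D1 passed in neither treatment in the mPFC. Its differences were 0.48 ± 0.21 (SE, adjusted p = 0.106) among controls and 0.38 ± 0.20 (adjusted p = 0.14) among RCF samples. In the NAc, H2-T23 was higher by 0.58 ± 0.19 (SE, adjusted p = 0.0354) and H2-Aa was called lower (adjusted p = 0.00697) among RCF samples, with 1 of 4 DBA2/J and 3 of 4 C57BL/6J arrays well above background. Among NAc controls no member passed the test, and H2-Aa was not well above background on any of the 4 arrays of either strain. Whether these differences depend on treatment was not tested.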
